A study of Mus musculus with 3 samples.

Results

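The 10 genes described here encode heat shock chaperones and were chosen by name: Hspa1a, Hspa1b, Hspa8, Hsph1, Dnajb1, Hspb1, Bag3, Hsp90aa1, Hspd1 and Hspe1. All 10 were found among the 56833 genes of the deposited table. RNA was sequenced from cells of mouse ankle synovium, the membrane that lines the joint, of the genotype Efhd1CreER; Ai9. In these mice a Cre recombinase under control of Efhd1 switches on the red fluorescent protein tdTomato of the Ai9 reporter, and the tdTomato-positive cells were sorted and called telocytes by the labels. All 3 groups carried the same alleles and were kept for 24 h on collagen-coated plates of different stiffness. The soft plate was rated 0.2 kPa, the plate called intermediate 8 kPa, and the third, called stiff, 64 kPa. Age and sex of the mice, the number pooled per culture and the way Cre was induced are not given in the sources used here. With 1 library per stiffness the differences below lack a check by replicates and carry no p-value, and a difference between cultures cannot be told apart from one between stiffness levels.

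Chaperones hold unfolded proteins in a state from which they can fold. The HSP70 proteins bind short hydrophobic stretches and hold them once ATP is hydrolysed. J-domain proteins such as Dnajb1 deliver clients and start the hydrolysis, and HSP110 and BAG proteins exchange the nucleotide, which releases the client. Small heat shock proteins catch unfolding clients without ATP, HSP90 brings signalling proteins to their active form, and the Hspd1 and Hspe1 products form the folding chamber of mitochondria. Heat shock factor 1 switches on the inducible members when misfolded proteins accumulate, by binding inverted repeats of the unit GAA in their promoters. In cells under mechanical load the BAG3 protein also takes unfolded filamin to autophagosomes.

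The upstream sequences are shown for the element through which heat shock factor 1 acts, and because 2 pairs of members have the same or nearly the same one. In the 250 bases before the start of the canonical transcript (GENCODE vM39, GRCm39), both strands were searched for 3 adjoining units, spelled GAANNTTCNNGAA or TTCNNGAANNTTC. Of 21757 protein-coding genes 76 (0.349%) held such a match, and 2 of the 10 chaperone genes did. These were Hspd1 and Hspe1, which are transcribed away from each other on chromosome 1. The starts of their canonical transcripts have 107 bases between them (55127184 to 55127290), and both windows hold the same site. That site is made of 2 overlapping 3-unit matches, printed below as a single run of capitals. Exons of other annotated transcripts, of these or of other genes, cover the whole windows of Hspd1, Hspe1, Hsph1, Hspa8 and Bag3, and the gene positions given below span all transcripts of a gene. The shorter spellings of 2 units, GAANNTTC or TTCNNGAA, which also lie inside every 3-unit match, were present upstream of 12.3% of genes (2673) and of 6 of the 10 chaperone genes: Hspa1a, Hspa1b, Hspb1, Hspd1, Hspe1 and Hsph1. A match is a description of letters in this window and does not show binding. The sequences below run 5′ to 3′ on the strand of the named gene, from GRCm39, with the matched units in capitals. The first is the shared site (chr1:55127212-55127241, plus strand, printed as 30 bases), and the others end at the last base before the transcript start of the 3 members with the largest stiff to soft ratios (chr17:35191133-35191256, minus strand; chr17:35178215-35178338, minus strand; chr5:135916636-135916759, plus strand).
Hspe1 and Hspd1: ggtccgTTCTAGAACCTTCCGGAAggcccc
Hspa1a: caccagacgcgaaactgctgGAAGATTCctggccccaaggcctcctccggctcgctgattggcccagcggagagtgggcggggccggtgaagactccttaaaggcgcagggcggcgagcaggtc
Hspa1b: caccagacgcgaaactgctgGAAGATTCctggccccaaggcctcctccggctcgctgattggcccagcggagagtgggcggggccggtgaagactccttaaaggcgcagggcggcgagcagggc
Hspb1: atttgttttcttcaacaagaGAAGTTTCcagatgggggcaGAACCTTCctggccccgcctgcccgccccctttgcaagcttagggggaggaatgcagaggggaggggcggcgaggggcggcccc
The upstream regions of Hspa1a and Hspa1b were identical at 247 of 250 bases. Their coding sequences were identical at 99.4% of 1926 aligned positions, with one run of 638 identical bases, and their 3′ UTRs at 47.1% of 865. Reads from the coding part therefore cannot be placed with certainty, and the 2 genes are also given as a sum.

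The recovered reads summed to between 25487064 (soft) and 28081600 (intermediate) per library, and 1 read was worth between 0.943 and 1.03 normalized counts. A log2 ratio below is of normalized counts with a pseudocount of 1. Its interval is the exact 95% Clopper-Pearson interval of the read share between both libraries, which holds for counting error alone: reads copied by PCR are not independent molecules. A gene was counted as past the fold at a log2 ratio of at least 1 in size among the 11873 genes that averaged 50 or more normalized counts. All 10 chaperone genes met that mean in their average over the 3 libraries, and the lowest of them, Hspa1a, had 147 reads in its smallest library. Of the markers for the labelled cell type, Pdgfra stood at 5884, 6298 and 5118 normalized counts on soft, intermediate and stiff plates and Cd34 at 235, 242 and 318, while Kit had 41 to 44 reads and Efhd1, whose promoter drives the Cre, was near its floor of 3 reads with 10, 5 and 3.

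All of the 10 genes except Hspe1 were highest on the stiff plate, and for most of them the soft and intermediate plates were close. Between stiff and soft 9 of the 10 genes were higher with an interval above 0, where 31.3% of all genes were. None had one below 0 (25.9% of all genes), as the interval of the tenth gene, Hspe1, included 0. Whether an interval leaves 0 depends on how many reads a gene has, and all genes were not matched to the members in level. For counts of intervals, here and below, the share of all genes is therefore not a like-for-like background. Hspa1a and Hspa1b were past the fold, where 3.22% of all genes were past it upward and 3.6% in either direction. With a log2 ratio of at least 0.5 Hspb1 joined them, giving 3 of 10 against 11.8% of all genes. The median of the 10 ratios was 0.38, and that of all genes was 0.00. Between intermediate and soft the median was -0.02, 3 genes had an interval above 0 (21.8% of all genes), 2 had one below 0 (13.5%), and none was past the fold (0.168%) or reached 0.5 (4.6%). Scaled by total reads or by the upper quartile, 2 had an interval above 0 and 3 one below, since Hsp90aa1 left the first group and Hspd1 joined the second. Between stiff and intermediate the median was 0.29, 9 of 10 had an interval above 0 (26.3%), Hspa1b alone was past the fold upward (0.825%), and Hspa1a, Hspa1b and Hspb1 reached 0.5 (5.42%). The 9 became 8 under upper quartile scaling, without Dnajb1, and also 8 after subtraction of a trend with length and GC content, when Dnajb1 and Bag3 left and Hspe1 joined. The comparisons share libraries, so their values are given side by side and are not independent.

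**Figure D1:**
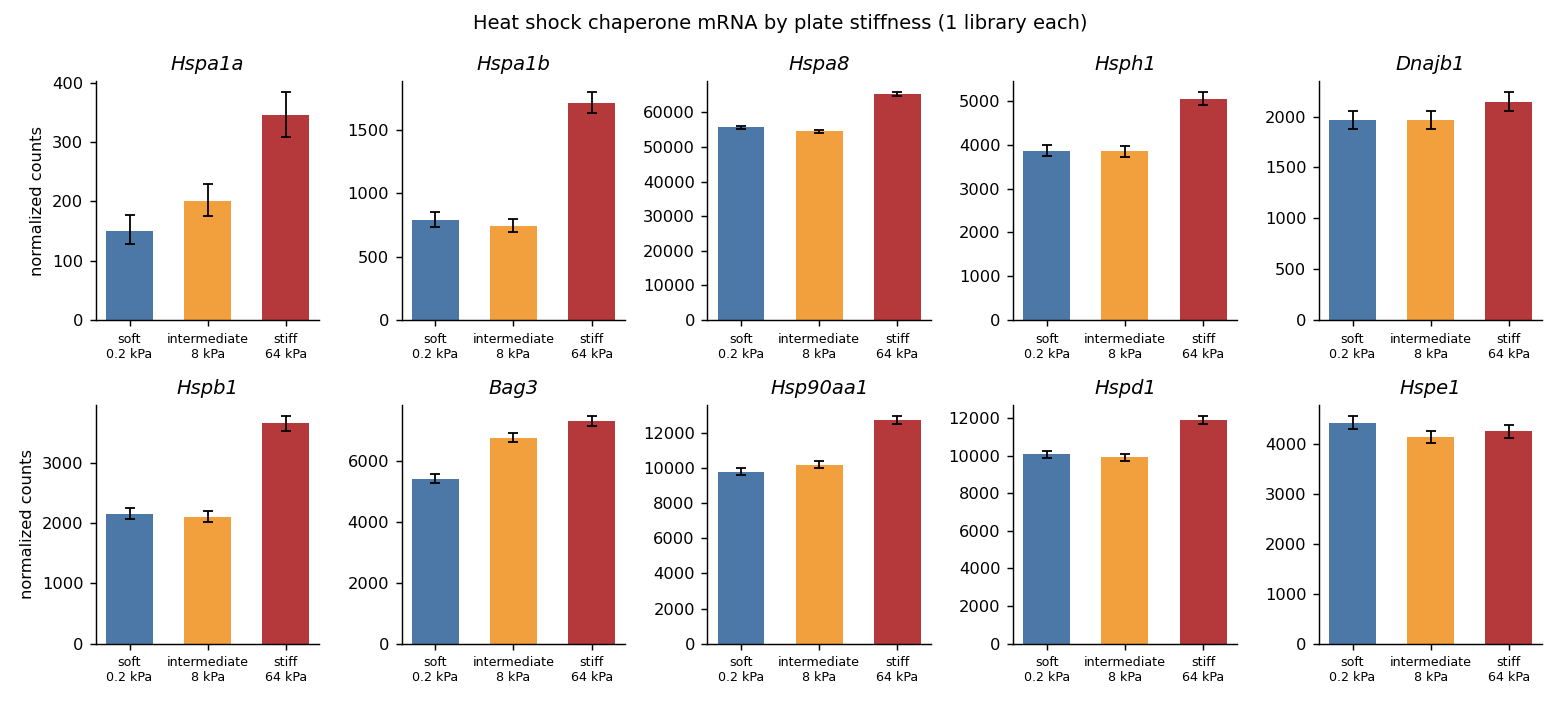
Normalized counts (vertical axis, from 0) of the 10 genes on soft, intermediate and stiff plates, 1 library each; error bars are exact 95% Poisson intervals of the reads. The stiff bar is the highest in every panel except that of Hspe1, where the soft bar is.

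The stress-inducible cytosolic HSP70 is encoded by Hspa1a and Hspa1b, intronless neighbours on chromosome 17 (35188166 to 35191132 and 35175412 to 35178214, both on the minus strand). Hspa1a stood at 151 normalized counts on the soft, 201 on the intermediate and 345 on the stiff plate. Hspa1b stood at 793, 744 and 1715 in the same order. On the stiff plate both were more than double their soft level, by 2.29-fold and 2.16-fold, with log2 ratios of 1.19 (interval 0.91 to 1.48) and 1.11 (0.99 to 1.24). These ratios lay above those of 98.4% and 97.8% of all genes. They parted at the first step: between intermediate and soft the log2 ratio was 0.41 (0.10 to 0.73) for Hspa1a and -0.09 (-0.24 to 0.05) for Hspa1b. Between stiff and intermediate it was 0.78 (0.53 to 1.03) and 1.20 (1.08 to 1.33). Hspa1a was the only one of the 10 genes with at least 0.25 in the same direction at both steps, which 6.43% of all genes had. Summed, the pair stood at 944, 945 and 2059 normalized counts, a log2 ratio of 0.00 (-0.13 to 0.13) at the first step and of 1.12 (1.01 to 1.24) at the second, so in the sum the stiff library stood apart from the other two. Hspa1a gave 16.0% of the pair's reads on the soft plate (13.7% to 18.5%, exact binomial), 21.3% on the intermediate (18.8% to 23.9%) and 16.7% on the stiff plate (15.1% to 18.4%). The intermediate share had an interval above both others, and how the counting placed reads shared by both genes is not given in the sources used here.

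Macrophage markers were present and moved in the same direction as inducible HSP70. All 12 of the list were detected in every library and all 12 were higher on the stiff than on the soft plate. Their summed level was 30226 normalized counts on the soft, 37150.1 on the intermediate and 64921 on the stiff plate, which is 1.23-fold from soft to intermediate and 2.15-fold from soft to stiff. The sum of Hspa1a and Hspa1b was level from soft to intermediate and 2.18-fold from soft to stiff. The part of macrophage RNA in the chaperone ratios was not tested, and in bulk RNA more cells of a type cannot be told apart from more RNA per cell. Lyz2, a lysozyme of myeloid cells and the most abundant of the 12, reached 39173 on the stiff plate. Markers of fibroblasts summed to 187172, 229898 and 279844, a sum that rests mostly on the collagen genes Col1a1 and Col1a2. Of the 6 fibroblast markers 3 were higher on the stiff than on the soft plate, and their median ratio was 0.14, with Dcn at -0.44 and Lum at -0.36. Endothelial markers summed to between 57.4 and 86.1. Markers of mast cells and basophils summed to 1844, 1531 and 1499, nearly all from Mcpt8 (1106, 806 and 724 reads) and Gata2 (693, 816 and 738 reads), while Cpa3 and Ms4a2 had no read. Mural cell markers summed to 2278, 3162 and 2975, with 1 of 5 higher on the stiff than on the soft plate (Cspg4). Skeletal muscle markers summed to 217, 353 and 681, a 3.13-fold difference from soft to stiff that came mostly from Acta1 (164, 315 and 607 reads), with Myh4 at 0 in every library and 3 of 5 higher. The part of these cells in the chaperone ratios was not tested.

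Hspa8 encodes the constitutive cytosolic HSP70 (chromosome 9, 40711630 to 40731039, plus strand). It was the most abundant member by far, at 55707, 54463 and 65244 normalized counts on soft, intermediate and stiff plates. The stiff library was 1.17-fold above the soft one, a log2 ratio of 0.23 (0.21 to 0.25), larger than that of 74.8% of genes. Under the other pseudocounts and scalings and the length and GC trend subtraction, the lowest value of this ratio was 0.14. Within each library, without any scaling between them, Hspa1a and Hspa1b together gave 1.67% of the reads of the 3 cytosolic HSP70 genes on the soft plate (1.56% to 1.78%). The share was 1.70% on the intermediate (1.60% to 1.81%) and 3.06% on the stiff plate (2.93% to 3.19%). The inducible share was thus similar on the softer plates and higher on the stiff plate, with an interval that did not overlap theirs.

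Co-chaperones of HSP70 differed less, and not alike. Hsph1, an HSP110 that exchanges the nucleotide of HSP70 (chromosome 5, 149537636 to 149560156, minus strand), stood at 3868, 3847 and 5053 normalized counts. Its soft and intermediate values were within counting error of each other, with a log2 ratio of -0.01 (-0.07 to 0.06), and its stiff to soft ratio was 0.39 (0.32 to 0.45). Dnajb1, the J-domain partner that is induced with HSP70 in the heat shock response (chromosome 8, 84334811 to 84339820, plus strand), stood at 1968, 1965 and 2144. Its stiff to soft ratio of 0.12 (0.03 to 0.21) was above that of 65.0% of genes, so it was near the middle of all genes while Hspa1b, in the same libraries, was far out. When scaled by total reads or by the upper quartile, or after subtraction of a trend with length and GC content, the interval of Dnajb1 included 0.

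**Figure D2:**
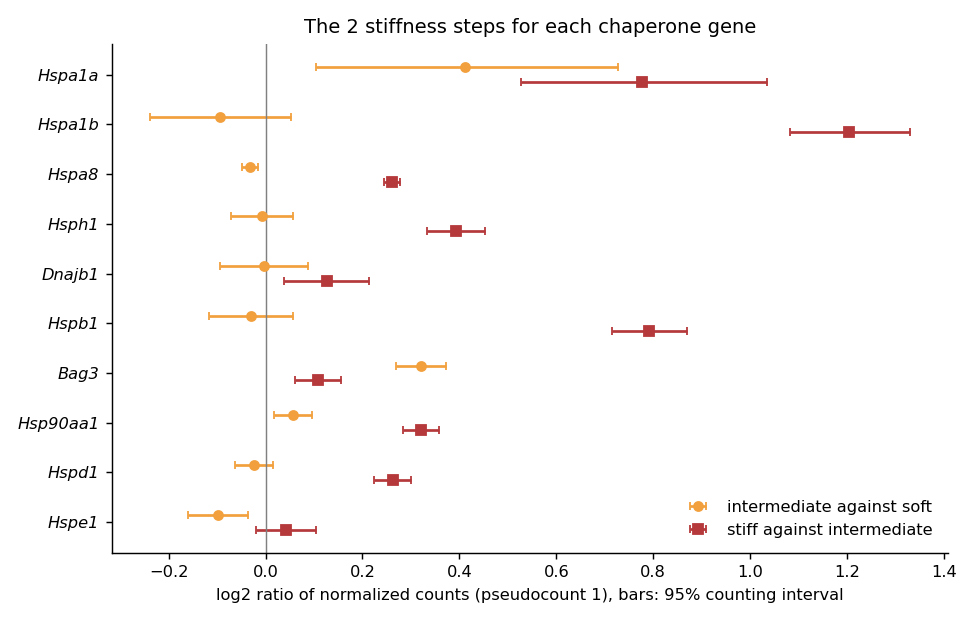
Log2 ratios (horizontal axis) of intermediate to soft (circles) and stiff to intermediate (squares) for the 10 genes, with 95% counting intervals. Bag3 is the gene whose first step, 0.32, is larger than its second, 0.11; Hspa1b, Hspb1, Hsph1, Hspa8 and Hspd1 have a first step between -0.10 and 0 and a second above 0.25.

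Hspb1 encodes a small heat shock protein that binds actin and holds unfolding clients (chromosome 5, 135916760 to 135918417, plus strand). Its level was 2155 on the soft, 2112 on the intermediate and 3656 on the stiff plate. The softer plates did not differ beyond counting error, with a log2 ratio of -0.03 (-0.12 to 0.06), and the stiff to soft ratio was 0.76 (0.68 to 0.84), 1.70-fold. Among the 9 other small heat shock genes 6 reached a mean of 50, and 1 of them had a comparable ratio: Cryab, the alpha B crystallin, at 5397, 4696 and 8267 normalized counts, with a stiff to soft ratio of 0.62 (0.56 to 0.67) and an intermediate to soft ratio of -0.20 (-0.26 to -0.14). Hspb6 was at 0.29 (0.18 to 0.40). The other 4 were lower on the stiff plate, with Hspb2 at -0.28 (-0.73 to 0.15) and Hspb11, whose product works in the transport of cilia, at -0.34 (-0.54 to -0.15). The median of the 6 was -0.14, or -0.06 over the 5 with a value after subtraction of a trend with length and GC content, so Hspb1, Cryab and Hspb6, the 3 with an interval above 0, did not stand for the family.

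Bag3 followed another course. It encodes the co-chaperone that links HSP70 and small heat shock proteins to autophagy (chromosome 7, 128125283 to 128148705, plus strand) and stood at 5427, 6775 and 7308 normalized counts. Most of its difference lay between the soft and the intermediate plate, with log2 ratios of 0.32 (0.27 to 0.37) at the first and 0.11 (0.06 to 0.16) at the second step. The first ratio was above that of 90.0% of genes and the second above that of 68.3%. Flnc, a filamin and so an actin crosslinker that BAG3 takes as a client, differed more: it stood at 1372, 2182 and 3565, with a stiff to soft ratio of 1.38 (1.29 to 1.47). Flna, the most abundant filamin, had 0.86 (0.84 to 0.89). Both depend on the processing: when a trend over length and GC content was subtracted, the ratio was 0.58 for Flnc, no longer past the fold, and 0.21 for Flna, and the second step of Bag3 was 0.04. Of the 11 genes of BAG3-dependent autophagy that averaged 50 or more normalized counts, 7 were higher and 4 lower on the stiff plate, and the median was 0.25, or 0.14 after the trend subtraction. Stub1, the ubiquitin ligase that works with BAG3, was at -0.22 (-0.30 to -0.13), Hspb8, its small heat shock partner, at -0.10, and Map1lc3b, an autophagosome coat protein, at -0.22 (-0.27 to -0.16), and the last 2 were both at -0.06 after the trend subtraction. Among the other BAG and exchange factor genes Bag2, an inhibitor of Stub1, had the highest ratio, 0.61 (0.51 to 0.72), with 1237, 1267 and 1891 normalized counts, followed by Bag6 at 0.33 (0.27 to 0.38). Bag4 had the lowest, -0.31 (-0.45 to -0.17), before Bag5 at -0.06 (-0.20 to 0.08). The median over these 9 genes was 0.05. After the trend subtraction Bag2 was at 0.65 and Bag6 at 0.03.

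Hsp90aa1, the inducible cytosolic HSP90 (chromosome 12, 110656842 to 110669166, minus strand), stood at 9785, 10179 and 12710.1 normalized counts. The stiff to soft ratio was 0.38 (0.34 to 0.42) and the intermediate to soft ratio 0.06 (0.02 to 0.10), whose interval included 0 under both of those scalings. Its constitutive paralog Hsp90ab1 stood at 39874, 42786 and 45665, with a stiff to soft ratio of 0.20 (0.18 to 0.22). Within a library Hsp90aa1 gave 19.7% of the reads of both genes on the soft plate (19.4% to 20.1%), 19.2% on the intermediate (18.9% to 19.5%) and 21.8% on the stiff plate (21.4% to 22.1%). The inducible form thus took a larger share on the stiff plate than on either softer one, as inducible HSP70 did. Of the 20 other HSP90 paralogs and co-chaperones 12 were higher and 8 lower on the stiff plate, none was past the fold, and the median was 0.03. The highest were Unc45a, a myosin chaperone, at 0.26 (0.13 to 0.39) and Stip1, which joins HSP70 to HSP90, at 0.24 (0.18 to 0.30), and the lowest were Cdc37l1 at -0.28 (-0.40 to -0.17) and Stub1 at -0.22 (-0.30 to -0.13), which is also counted in the autophagy list. The trend subtraction left Stip1 at 0.25 and Unc45a at 0.04, and the median was then 0.08.

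The mitochondrial pair, whose starts share the upstream site shown above, had different ratios. Hspd1, the chaperonin subunit (chromosome 1, 55116989 to 55171038, minus strand), stood at 10064, 9899 and 11875 normalized counts, a stiff to soft ratio of 0.24 (0.20 to 0.28). Hspe1, the lid of the chamber (chromosome 1, 55127260 to 55130476, plus strand), stood at 4414, 4124 and 4248, and its ratio was -0.06 (-0.12 to 0.01). In the reads of both genes Hspd1 took 69.5% on the soft (68.7% to 70.3%), 70.6% on the intermediate (69.9% to 71.3%) and 73.7% on the stiff plate (73.0% to 74.3%). The sign for Hspe1 depends on the processing: after subtraction of a trend with transcript length and GC content its ratio was 0.11, and that of Hspd1 was 0.31. Over all alternative pseudocounts, scalings and the trend subtraction, the lowest ratio of Hspd1 was 0.15. Annotated exons of Hspd1 lie over 112 of the 774 bases of the Hspe1 transcript on the other strand, and the strand setting of the counting is not given in the sources used here. Other mitochondrial chaperones and proteases were close to level, with 8 of 13 higher and 5 lower on the stiff plate, none past the fold and a median of 0.06. Lonp1, a matrix protease, had the highest ratio at 0.21 (0.11 to 0.31), followed by Grpel1, an exchange factor, at 0.15 (0.06 to 0.23). Hscb, a J-domain protein of iron-sulphur assembly, had the lowest at -0.30 (-0.57 to -0.03), before the protease Htra2 at -0.21 (-0.31 to -0.11). After the trend subtraction Lonp1 was at 0.06.

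**Figure D3:**
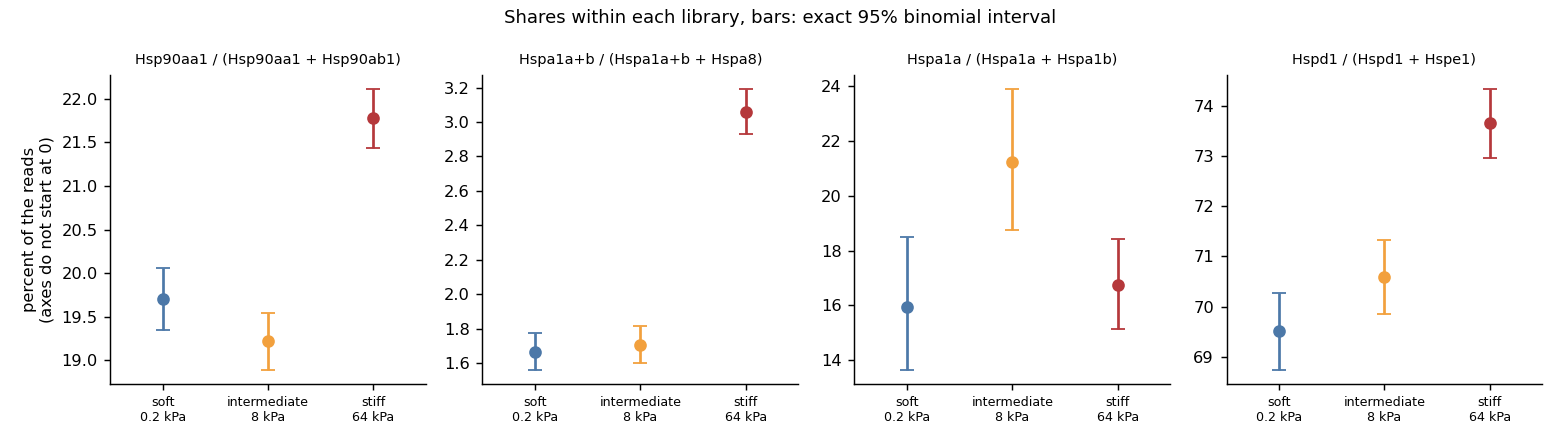
Share of reads (vertical axes in percent, not starting at 0) that the first gene or gene pair takes within each library, with exact 95% binomial intervals. The stiff library has the highest share in 3 of the 4 panels, and the share of Hspa1a within the Hspa1 pair is highest in the intermediate library.

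Per kilobase of canonical transcript the members spanned a wide range, and the order changed little with stiffness. On the soft plate Hspa8 was first with 23269 normalized counts per kilobase, followed by Hspe1 (5703), Hspd1 (4154), Hsp90aa1 (2772), Hspb1 (2353), Bag3 (2072), Hsph1 (626), Dnajb1 (557), Hspa1b (283) and, last, Hspa1a (50.8). On the intermediate plate Bag3 (2587) stood above Hspb1 (2305). On the stiff plate Hspb1 (3991) stood above Hsp90aa1 (3601), and Hspa1b (612) was level with Dnajb1 (607). Those last 2 were the only neighbours in any of the 3 orders whose counting intervals overlapped. As a share of all reads the 10 genes took 0.361% of the soft library (0.359% to 0.363%), 0.356% of the intermediate (0.354% to 0.358%) and 0.421% of the stiff library (0.419% to 0.423%). Without Hspa8 the shares were 0.148%, 0.151% and 0.181%.

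**Figure D4:**
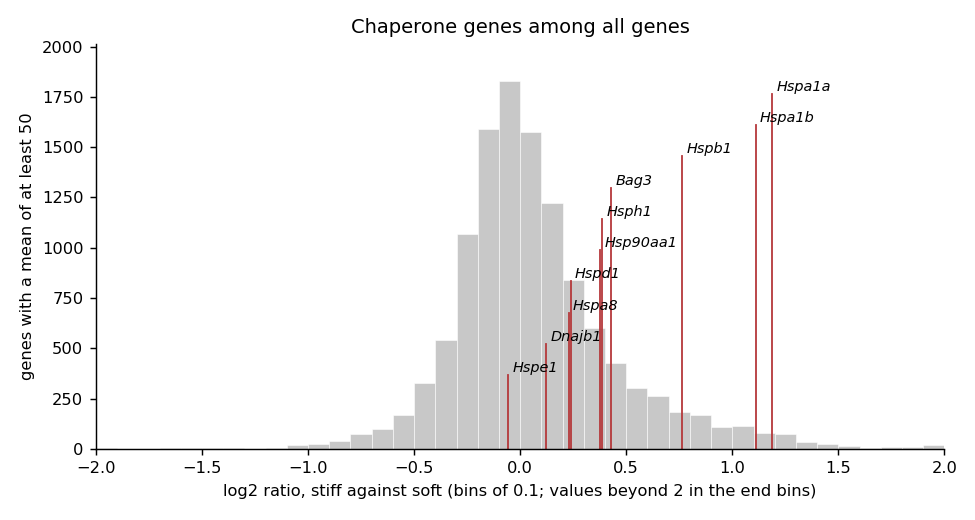
Number of genes (vertical axis) by log2 ratio of stiff to soft (horizontal axis) for the 11873 genes averaging 50 or more normalized counts, with the 10 chaperone genes as labelled lines whose height carries no value. Hspe1, at -0.06, and Dnajb1, at 0.12, lie in the bulk of the genes, and Hspa1a and Hspa1b, above 1, in the upper tail.

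The lists of heat shock regulators, other HSP70 and HSP110 genes, J-domain genes and chaperonin subunits had medians between -0.01 and 0.17 for stiff to soft, below that of the 10 members, with single genes higher or lower. Hsf1, the main factor, stood at 614, 684 and 779 normalized counts, a ratio of 0.34 (0.19 to 0.50). Hsf2 stood at 571, 440.2 and 570.2 and was lowest on the intermediate plate. The 6 measured regulator genes split into 3 higher and 3 lower. Dedd2 at 0.68 (0.33 to 1.06) and Ier5, which binds the factor, at 0.47 (0.37 to 0.57) were highest, and Hsf4 at -0.35 (-0.79 to 0.09) and Hsbp1, a factor-binding protein, at -0.13 (-0.20 to -0.07) were lowest. Of 10 other HSP70 and HSP110 genes 8 were higher, none was past the fold and the median was 0.10. Hyou1, an HSP110 of the endoplasmic reticulum, was at 0.45 (0.39 to 0.50), Hspa2 at 0.37 (0.12 to 0.63), Hspa14 at -0.20 (-0.31 to -0.09) and Hspa13 at -0.30 (-0.36 to -0.24). The 20 other J-domain genes split into 11 higher and 9 lower with a median of 0.01. Dnajb12 at 0.54 (0.43 to 0.66) and Dnajb5 at 0.38 (0.13 to 0.64) were highest, and Dnajc9 at -0.36 (-0.49 to -0.23) and Dnajc10 at -0.22 (-0.27 to -0.17) were lowest. The 14 genes of the cytosolic chaperonin and of prefoldin, which fold actin and tubulin, had 6 higher and 8 lower and a median of -0.01. Pfdn5, a prefoldin subunit, was the lowest of them at -0.37 (-0.43 to -0.30) and Cct8, a chaperonin subunit, the highest at 0.11 (0.07 to 0.16). Next to them were the prefoldin subunit Vbp1 at -0.19 (-0.28 to -0.11) and the chaperonin subunit Cct3 at 0.06 (0.03 to 0.10). Several of these values moved by more than 1.5 times when the trend with length and GC content was subtracted. Hsf1 then stood at 0.10, Hyou1 at 0.26, Dnajb12 at 0.34, Dnajb5 at 0.25, Hspa13 at -0.18, Hspa14 at -0.11, Vbp1 at -0.09 and Cct8 at 0.25, and Hsf2 and Hsbp1 changed sign, to 0.14 and 0.02. The median of the chaperonin and prefoldin list changed sign too, to 0.07.

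Another gene of the heat shock response had a ratio as large as that of Hspb1. Hmox1, the haem oxygenase, stood at 23679, 23598 and 43112 normalized counts, with a stiff to soft ratio of 0.86 (0.84 to 0.89) and, like Hspb1, hardly any difference between the softer plates. Macrophages also make Hmox1, and their markers had a median ratio of 1.25; their part in its ratio was not tested. Ubb, a polyubiquitin gene, was at 0.07 (0.03 to 0.11). Serpinh1, the collagen chaperone, was at 0.08 (0.06 to 0.10), or -0.04 after the trend subtraction, and Mrpl18, a protein of mitochondrial ribosomes, at -0.14 (-0.25 to -0.03). Of the 8 genes of this list 7 were higher on the stiff plate, none was past the fold and the median was 0.26. Over all 109 chaperone and heat shock genes of these lists outside the 10 members, 64 were higher and 45 lower. Among all 11873 genes 6064 were higher and 5809 lower. The medians were 0.03 for the 109 genes, 0.38 for the 10 members and 0.00 for all genes. With the trend subtracted these medians were 0.06 over 108 genes, 0.32 and -0.00.

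**Figure D5:**
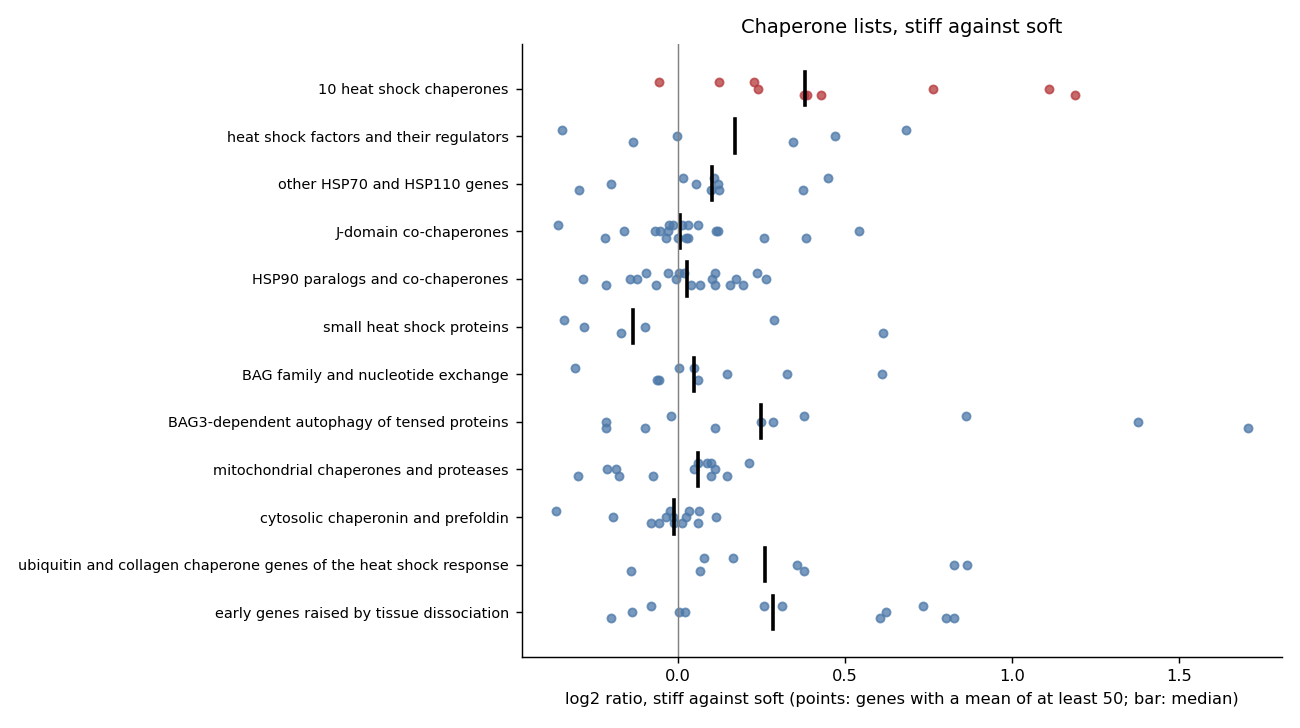
Log2 ratios of stiff to soft (horizontal axis) for the 10 members and for each list of related genes; points are genes averaging 50 or more normalized counts and the bar is the median. The members' median is 0.38, and those of the J-domain, HSP90 and chaperonin lists are 0.01, 0.03 and -0.01.

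The genes whose course over the 3 libraries was nearest to that of Hspa1a, the member with the largest stiff to soft ratio, were sought by distance over the 2 successive log2 ratios among 10614 named genes that averaged at least 100. The nearest included Ptprs, Arl11, Fcgr2b and Marchf1, at distances of 0.01 to 0.04 on the log2 scale. Ptprs, a receptor tyrosine phosphatase, stood at 980.1, 1315 and 2255 normalized counts, beside 151, 201 and 345 for Hspa1a. Fcgr2b, an inhibitory receptor for IgG, stood at 451, 599.6 and 1051. With 3 libraries such a likeness rests on 2 ratios.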

How the data were processed

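The 10 members, the gene lists and the settings were chosen with earlier results of these data known. Per the submitters' processing notes, the tools were bcl2fastq 2.20.0, STAR 2.7.9a, featureCounts of Subread 2.0.1 and DESeq2 1.34.0 with build GRCm39; the annotation, the strand setting and the handling of reads with several positions are not given in the sources used here. The authors deposited a signal: the reads of each gene over a size factor of its library. The 3 deposited files were identical, and each column was assigned by its sample title. All values (100.0% in each library, tolerance 0.01 read) were whole multiples of the smallest, so whole reads were recovered by division. With 1 library per level no count test was run. Named genes were all members, the 2 highest and 2 lowest of each of 11 lists, any list gene past the fold, the paralogs of the within-library shares, and the 5 genes nearest to the member with the largest ratio; Hsf1, Hsf2, Hspb8, Flna, Serpinh1, Lyz2 and Hspa1l were named after their values were seen, and some genes that the rule names are not reported here. Genes were matched by symbol to GENCODE vM39 (GRCm39): 11655 of 11873 with a mean of at least 50, and all 10 members. A count of 0 allows up to 3 reads. Alternatives were other pseudocounts, minimum means, folds and scalings, and a local linear trend over the 300 nearest genes in length and GC content. The counting and trend steps were checked on simulated data. Versions were Biopython 1.88, matplotlib 3.10.9, scipy 1.17.1, pandas 2.3.3, numpy 2.4.6 and Python 3.11.15.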

Additional observations from a re-analysis of the deposited data

How the results depend on the processing

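No paired analysis was possible because each level had 1 library, and no library could be left out. The members past the fold (2 from soft to stiff, 0 from soft to intermediate, 1 from intermediate to stiff) were the same in number under both pseudocounts, all minimum means, 4 scalings and the length and GC trend subtraction, under which Hspa1b lay just above the fold. With a fold of 0.5, 3 members passed between stiff and intermediate, and with a step of 0.5 the count with one direction at both steps went from 1 to 0. Under scaling by total reads and by the upper quartile, with shifts of -0.06 and -0.09 in the ratio of stiff to soft, 1 member had an interval below 0 (Hspe1). Of 30 member ratios 24 kept their sign under every alternative, and the 6 that did not were at most 0.10 in size: Hspb1, Dnajb1, Hspd1 and Hspe1 between intermediate and soft, and Hspe1 in the other comparisons.

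Over all genes the counts past the fold were 428, 20 and 148 for soft to stiff, soft to intermediate and intermediate to stiff, and 764 for one direction. They were 5827, 3646, 3904 and 2096 without a filter. With a mean of at least 10 the first 3 were 822, 215 and 451, with a mean of at least 200 they were 238, 8 and 72, and with a fold of 0.5 they were 1850, 546 and 1050. With a step of 0.5 the last was 128. Between intermediate and soft a pseudocount of 10 gave 10 and the trend subtraction 13, and the trend subtraction gave 443 for one direction. These follow from the thresholds by construction, except those of the trend, whose cause was not tested. The 148 split into 98 higher and 50 lower, and into 77 and 63 under upper quartile scaling. Per kilobase the shares on soft, intermediate and stiff plates were 15.8%, 15.4% and 17.6% for Hsp90aa1, 1.41%, 1.44% and 2.60% for inducible HSP70, and 42.1%, 43.4% and 47.2% for Hspd1, with the stiff library highest in each. Adding reads of the named copies of Hspd1 and Hspe1 left their 3 shares inside their intervals. Depth limits the first step of Hspa1a, which rests on 147 and 213 reads.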

Other observations

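Early response genes, which are also raised when tissue is taken apart, were mostly higher on the intermediate and on the stiff plate than on the soft one. Of 12 such genes 11 were higher on the intermediate than on the soft plate, as were 6348 of all 11873 genes averaging 50 or more. Their median log2 ratio was 0.23, where the 10 chaperones had a median of -0.02. Between stiff and soft 9 of the 12 were higher, 5 of them by 0.5 or more, with a median of 0.29 beside 0.38 for the chaperones. Among all 11873 genes 6064 were higher in that comparison, 1402 of them (11.8% of all) by 0.5 or more. Fosb stood at 155, 461 and 140.5 normalized counts on soft, intermediate and stiff plates, and was past the fold upward at the first step, at 1.57 (1.31 to 1.85), and downward at the second, at -1.71. Fos stood at 660.2, 909.7 and 1153 and Atf3 at 239.9, 333 and 427, higher at both steps. Dusp1, a phosphatase that was named here after its values were seen, stood at 2630 on the soft, 2322 on the intermediate and 4000.5 on the stiff plate. Junb was at 8040, 9149.9 and 6996.

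The named copies of Hspd1 and Hspe1 took few reads. A search by gene name found no copies of Hspa1a, Hspa1b, Hspa8, Hsp90aa1 or Hsp90ab1. Copies of Hsph1, Dnajb1, Hspb1 and Bag3 were not searched for. Of the Hspd1 copies the most abundant, Hspd1-ps3, had 27, 20 and 27 reads beside 9817, 10501 and 11580 for Hspd1. Gm20481, which lies on the other strand over 564 bases of Hspa1a, had at most 2.05 normalized counts. Hspa1l, the neighbour of both inducible HSP70 genes in the same cluster, had 7 reads on the soft, 8 on the intermediate and 3 on the stiff plate.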
